A study of Mus musculus with 13 samples.

Results

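Of the 124781 genomic regions that carried FLAG-tagged FOXL2 in at least 1 library, 4021 (3.22%) had a FOXL2 peak in both vehicle libraries and in neither activin library. They are called vehicle-only regions here. They were chosen by their measured FOXL2 peaks: the peaks of the 4 FLAG lists were merged where they shared at least 1 bp, and a region was selected on presence in the lists alone. The absence of FOXL2 peaks with activin is therefore the selection itself and not a result. For comparison, 58444 regions had a peak in all 4 FLAG libraries (constant regions) and 11173 had one in both activin libraries and neither vehicle library (activin-only regions).

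The cells were LβT2, a mouse pituitary line that resembles gonadotropes, the cells that secrete follicle-stimulating hormone and luteinizing hormone. All of them, controls included, carried a lentiviral, doxycycline-inducible FLAG-mFoxL2, so the FLAG signal reports an expressed transgene and not the cell's own FOXL2. After 24 h of recovery, 48 h of doxycycline and 2 h in medium with 2% serum, cultures were given vehicle or activin A at 1 nM for 1 h and cross-linked with 1% formaldehyde. Chromatin immunoprecipitation and sequencing used antibodies to FLAG, against SMAD2/3 and against H3K27ac, the acetylated lysine 27 of histone H3, with 2 vehicle and 2 activin libraries per antibody and 3 plates pooled per sample. The library names carry 1 letter per culture sample that is shared by the 3 antibodies, so the 3 measurements of a sample may come from the same chromatin. The labels do not say that the samples were separate cultures beyond their replicate number, so any p-value measures the spread between these samples only.

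FOXL2 is a forkhead transcription factor needed for transcription of Fshb, which encodes the β subunit of follicle-stimulating hormone. Activin binds its receptors on the gonadotrope, the receptors phosphorylate SMAD2 and SMAD3, and these enter the nucleus and act on DNA together with factors such as FOXL2. H3K27ac marks active enhancers and promoters. Fold enrichment, −log10 q and peak presence below are the authors' own values from lists called separately in each library, and the percentile rank is a peak's position by −log10 q in its own list, with 100 for the strongest.

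The sequences below show the DNA under vehicle-only regions at gene starts, where a reference sequence was at hand. RefSeq promoter windows (build GRCm38.p6, 250 bases before to 50 bases after a start) shared at least 1 bp with 61 vehicle-only regions, through 69 windows. Each sequence is the stretch before the start that lies inside the vehicle-only region, written 5′ to 3′ on the strand of the gene, with matches to the forkhead motif TGTTTNC on either strand in capitals. Sycn, Gas1 and Kat2b are the strongest 3 regions whose summit lies in the printed stretch. Trmt13 is shown because its stretch holds 3 matches, chosen after its sequence was seen, and Nr0b1 because it encodes DAX-1, a nuclear receptor of gonadotropes. Both are weak regions. Their percentile ranks in vehicle 1 and vehicle 2 were 15.7 and 20.4 for Trmt13 and 1.29 and 12.9 for Nr0b1. The Nr0b1 region had FOXL2 folds of 2.65 and 3.22, near the bottom of the lists. Names in this paragraph are those of the promoter windows. In the deposited annotation the nearest gene was Pp2d1 for the Kat2b region and Sass6 for the Trmt13 region. The stretches lie at chr7:28540635-28540829 on the plus strand for Sycn, chr13:60177536-60177785 on the minus strand for Gas1, chr17:53566783-53566970 on the plus strand for Kat2b, chr3:116614624-116614837 on the minus strand for Trmt13 and chrX:86191567-86191774 on the plus strand for Nr0b1.
Sycn: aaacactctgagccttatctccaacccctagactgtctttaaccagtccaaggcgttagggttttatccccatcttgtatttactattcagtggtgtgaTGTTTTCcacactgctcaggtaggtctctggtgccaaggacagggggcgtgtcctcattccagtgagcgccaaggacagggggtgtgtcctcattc
Gas1: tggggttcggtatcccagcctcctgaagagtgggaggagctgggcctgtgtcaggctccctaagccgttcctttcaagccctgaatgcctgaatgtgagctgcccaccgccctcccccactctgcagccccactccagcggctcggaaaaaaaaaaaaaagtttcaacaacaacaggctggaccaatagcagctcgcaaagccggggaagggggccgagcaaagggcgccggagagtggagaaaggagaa
Kat2b: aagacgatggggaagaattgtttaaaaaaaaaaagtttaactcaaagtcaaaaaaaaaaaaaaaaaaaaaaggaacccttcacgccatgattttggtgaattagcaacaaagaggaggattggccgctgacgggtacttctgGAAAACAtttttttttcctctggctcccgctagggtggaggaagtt
Trmt13: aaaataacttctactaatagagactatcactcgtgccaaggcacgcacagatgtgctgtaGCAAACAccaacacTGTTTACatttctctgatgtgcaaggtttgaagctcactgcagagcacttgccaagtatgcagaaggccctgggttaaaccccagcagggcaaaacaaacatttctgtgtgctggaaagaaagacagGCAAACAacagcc
Nr0b1: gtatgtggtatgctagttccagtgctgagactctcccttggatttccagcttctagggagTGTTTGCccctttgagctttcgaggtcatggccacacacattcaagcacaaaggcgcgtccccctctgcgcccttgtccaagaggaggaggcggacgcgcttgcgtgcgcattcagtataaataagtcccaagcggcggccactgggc

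The Sycn, Kat2b and Nr0b1 stretches each held 1 forkhead match, and the Gas1 stretch held none. Among the 69 promoter windows at vehicle-only regions, 29% held TGTTTNC on either strand (95% Wilson interval 19.6 to 40.6). The share was 36.1% of 729 windows at constant regions (32.7 to 39.6), 32.9% of 70 windows at activin-only regions (23 to 44.5) and 20.5% of all 32817 promoter windows. The interval of the vehicle-only windows contains each of these 3 values. The E-box CAGCTG, a site of basic helix-loop-helix factors, was in 4.35% of the vehicle-only windows (1.49 to 12), in 15.4% of the constant windows (12.9 to 18.2) and in 16.3% of all windows. That E-box value rests on 3 windows, was picked from 16 motifs searched after its value was seen, and was not tested. A match describes letters in the window and not a site of binding.

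Vehicle-only regions were weak FOXL2 sites, as a description of how they were chosen. Their median fold enrichment was 4.61 in vehicle 1 and 4.40 in vehicle 2, with ranges of 1.99 to 12.6 and 1.96 to 11.6. Constant regions had medians of 9.48 and 7.98 in the same libraries. The median percentile rank was 21.3 and 24.6 at vehicle-only regions against 65.7 and 64.5 at constant regions. Low strength was shared by the sets that are not constant. Activin-only regions had median ranks of 32.2 and 28.2 in the activin lists. Regions of all other patterns had 20.4 and 20.5 in the vehicle lists where present. A mean rank under 50 was seen at 95.9% of vehicle-only and 32.4% of constant regions. No vehicle-only region was among the strongest sites of either list, the highest ranks being 74.6 and 80.4.

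**Figure D1:**
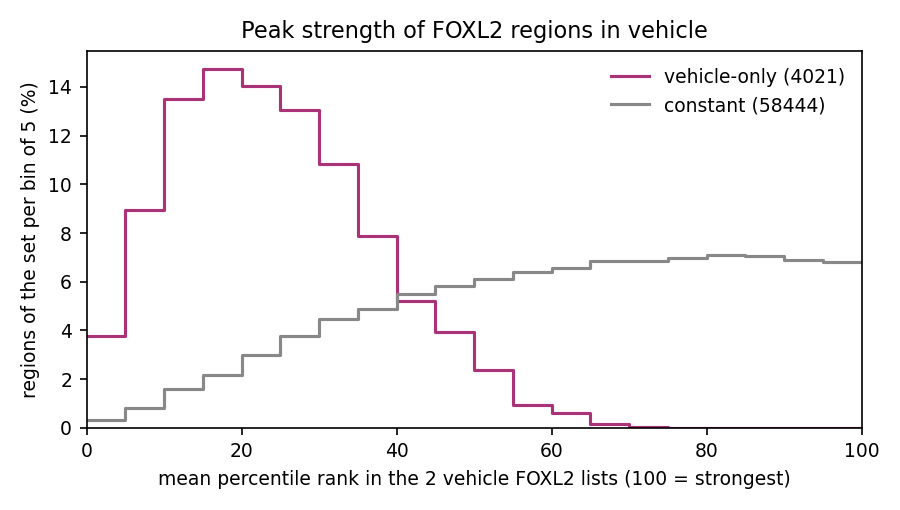
Percent of regions (vertical) by mean percentile rank in the 2 vehicle FOXL2 lists (horizontal, bins of 5) for the 4021 vehicle-only and 58444 constant regions. Vehicle-only regions crowd at low ranks, with 95.9% under 50, while constant regions extend to 100.

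The regions were also narrow, with a median width of 263 bp (171 to 874) against 465 bp at constant and 284 bp at activin-only regions. The summits in the 2 vehicle libraries lay a median of 32 bp apart, and 70% were within 50 bp of each other. In both vehicle lists 2265 regions (56.3%) had a −log10 q of at least 5 and 349 (8.68%) had at least 10. Just inside the rule stood regions near RP23-110C17.2, Gm19967 and 4933413C19Rik, each with a −log10 q of 1.3 in vehicle 2. Just outside it stood regions near Lnp, 8430436N08Rik and Gltscr1l, kept out by a single activin peak with a −log10 q of 1.3, 1.32 and 1.37. In all, 5767 regions had both vehicle peaks and exactly 1 activin peak, whose median −log10 q was 6.44. Peak lists do not give the reads behind each library, and whether depth takes part in presence near the threshold was not tested. The activin FLAG lists were longer (97701 and 94006 peaks) than the vehicle lists (86401 and 83834), and cutting all lists to 83834 peaks kept 3768 of the regions (93.7%) in overlap with a vehicle-only region.

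The strongest vehicle-only region lay at the promoter of Sycn, which encodes syncollin, a protein of secretory granules (chr7:28540583-28540829 in the coordinates of the deposited lists, with its centre at −0.179 kb from the start). Its fold enrichment was 10.5 in vehicle 1 and 9.75 in vehicle 2, and no H3K27ac or SMAD2/3 peak was there in any library. An intergenic region at −36.4 kb from the start of Fam216b had folds of 12 and 11.3, also without H3K27ac. The region at −78.7 kb from the start of Lrrtm1, a gene for a synaptic leucine-rich repeat protein, had folds of 8.93 and 8.21. Of the 10 strongest regions, those nearest Gm14214, Gm36307 and Gm20395 overlapped H3K27ac peaks and the others did not. At Gm14214 the H3K27ac folds were 7.15 and 6.8 in the vehicle libraries, and activin gave 4.92 and 4.75. At Gm36307 the vehicle folds were 3.86 and 3.25, and the activin folds 2.78 and 2.29. Both activin values lay below both vehicle values at each of the 2 regions.

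The strongest regions that overlapped, at least in part, an H3K27ac region with peaks only with vehicle were near Gm20395, Gm15586, Gm38193, Fgf12, Dgkk and Loh12cr1. Fgf12 encodes an intracellular fibroblast growth factor homologue and Dgkk a diacylglycerol kinase. At the Dgkk intron, FOXL2 folds were 9.8 and 6.43 and H3K27ac folds 3.51 and 2.89 with vehicle, with no H3K27ac peak with activin. At the Fgf12 intron, FOXL2 folds were 6.1 and 4.6 and H3K27ac folds 2.66 and 2.2 with vehicle. These H3K27ac peaks were of low to middle strength, with ranks between 20 and 54.8.

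**Figure D2:**
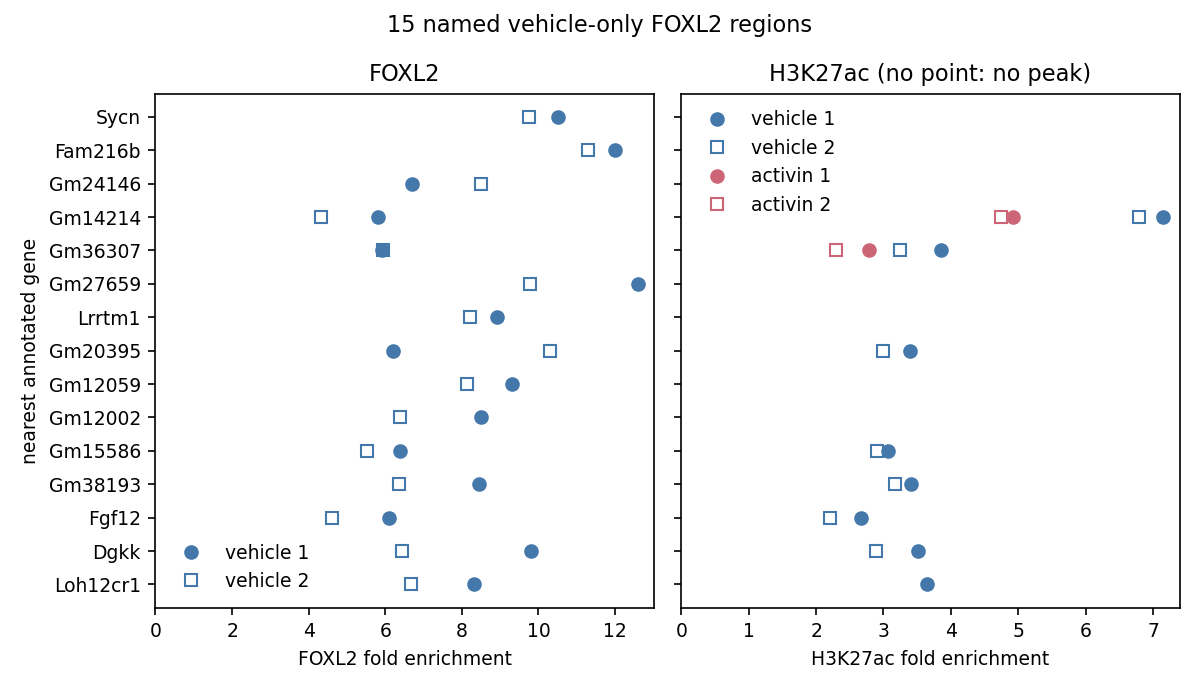
FOXL2 fold enrichment (left) in the 2 vehicle libraries and H3K27ac fold enrichment (right) in the 4 H3K27ac libraries at 15 named vehicle-only regions, labelled by nearest gene; a missing point means no peak. At Gm14214 the 2 activin H3K27ac points (4.92 and 4.75) lie left of the 2 vehicle points (7.15 and 6.8).

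H3K27ac was measured in libraries that the selection did not use. An H3K27ac peak overlapped 26% of the vehicle-only regions in vehicle 1, 25.9% in vehicle 2, 20.4% in activin 1 and 18.5% in activin 2. Both activin libraries were below both vehicle libraries. The mean went from 26% ± 0.0703 (SD, n = 2) to 19.4% ± 1.34 (SD, n = 2), a difference of −6.52 percentage points against a pooled SD of 0.946. With 6 ways to label the 4 libraries, an exact permutation test (two-sided) gave p = 0.33, the smallest value it can give, so no comparison of 2 against 2 libraries can pass 0.05 here.

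At constant regions the same shares were 22.5%, 21.7%, 22.6% and 19.6%, and the groups overlapped (difference −1, pooled SD 1.57, exact permutation p = 1). The vehicle-only share minus the constant share was 3.5 and 4.18 percentage points for vehicle, against −2.25 and −1.11 for activin. This difference changed by −5.52 percentage points (pooled SD 0.666, exact permutation p = 0.33, the smallest possible). At activin-only regions the shares ran the other way, 7.72% and 7.59% for vehicle against 12.2% and 9.95% for activin. The vehicle-only minus activin-only share changed by −9.93 percentage points (pooled SD 0.165, exact permutation p = 0.33).

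**Figure D3:**
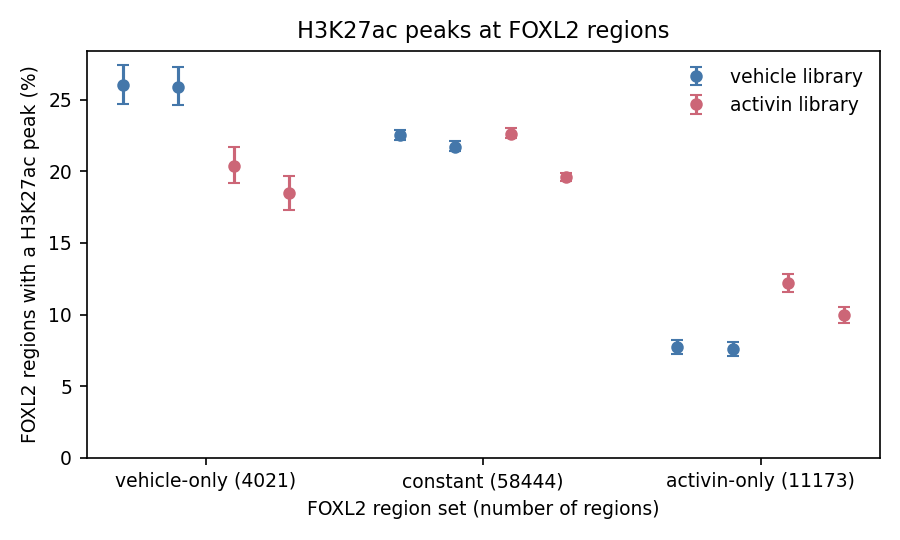
Percent of FOXL2 regions with an H3K27ac peak (vertical) in each library, for 3 sets of regions; points are libraries and bars are 95% Wilson intervals, which cover counting error only. The 2 activin points (20.4% and 18.5%) lie below the 2 vehicle points (26% and 25.9%) at vehicle-only regions, and above them at activin-only regions.

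At 2829 vehicle-only regions (70.4%) there was no H3K27ac peak in any of the 4 libraries, and 668 (16.6%) had one in all 4. The shares at constant regions were nearly the same, 70.6% and 15.1%. A peak in both vehicle and neither activin library was found at 171 regions (4.25%, 3.67 to 4.92) and the opposite at 11 (0.274%, 0.153 to 0.489). At constant regions these 2 patterns made up 2.46% and 2.09%. Vehicle-only regions were also split by mean vehicle FOXL2 rank into 4 sets of 1005 or 1006. The differences in H3K27ac share were −4.67, −5.67, −5.82 and −9.9 percentage points from the weakest to the strongest set. The strongest set also had the higher vehicle shares, 29.7% and 29.5%, against 23.5% to 25.6% in the others. The ranks come from the lists that chose the regions, and no trend was tested. At mean vehicle ranks of 0 to 25 the difference was −5.22 at 2212 vehicle-only regions and 1.14 at 4620 constant regions. At ranks of 25 to 50 it was −7.45 at 1644 vehicle-only regions and 0.311 at 14290 constant regions. At ranks of 50 to 75 it was −14.5 at 165 vehicle-only and −0.861 at 19164 constant regions. These bands align FOXL2 rank with vehicle alone. Constant regions also had to have FOXL2 peaks with activin, so the sets still differ in FOXL2 by selection. Neither the split nor the bands were among the planned comparisons.

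Seen from the H3K27ac lists, 1161 merged H3K27ac regions overlapped a vehicle-only FOXL2 region. Of these, 125 (10.8%, 9.11 to 12.7) had peaks in both vehicle and neither activin H3K27ac library, against 6.79% of all 53008 H3K27ac regions. The share was 8.35% (7.92 to 8.8) of the 15364 H3K27ac regions at constant FOXL2 regions. Only 8 (0.689%) had the opposite pattern, against 5.84% of all and 7.97% of those at constant FOXL2 regions. Those 8 included regions near Eif3d, a translation initiation factor subunit, and Ambra1, an autophagy regulator. The remaining H3K27ac regions were mostly shared, 841 (72.4%) having peaks in all 4 libraries. That share was 45.9% of all H3K27ac regions and 50.8% of those at constant FOXL2 regions.

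Within those 841 shared H3K27ac regions the strongest peaks were lower in their lists with activin. Each merged region was represented by its strongest peak in each library, which need not lie at the FOXL2 site. The median width was 2962 bp at the 841, against 1657 bp over all shared H3K27ac regions and 2532 bp over constant FOXL2 regions. The median percentile rank was 82 and 81.6 for vehicle against 73.8 and 69.3 for activin, a difference of −10.3 (pooled SD 2.27, exact permutation p = 0.33). Relative to the median of all shared H3K27ac regions in the same library, the vehicle values were 13.1 and 13.4 and the activin values 4.25 and 2.86 (difference −9.7, pooled SD 0.714, exact permutation p = 0.33). Both vehicle ranks were above both activin ranks at 496 of the 841 (59%), against 31.2% of all 24356 shared H3K27ac regions. The opposite order was seen at 91 (10.8%), against 26.4%. At the 7809 shared H3K27ac regions over constant FOXL2 regions these 2 orders made up 37.4% and 31.7%. The median H3K27ac fold was 4.98 and 4.6 in vehicle libraries, against 4.18 and 4.17 in activin libraries.

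**Figure D4:**
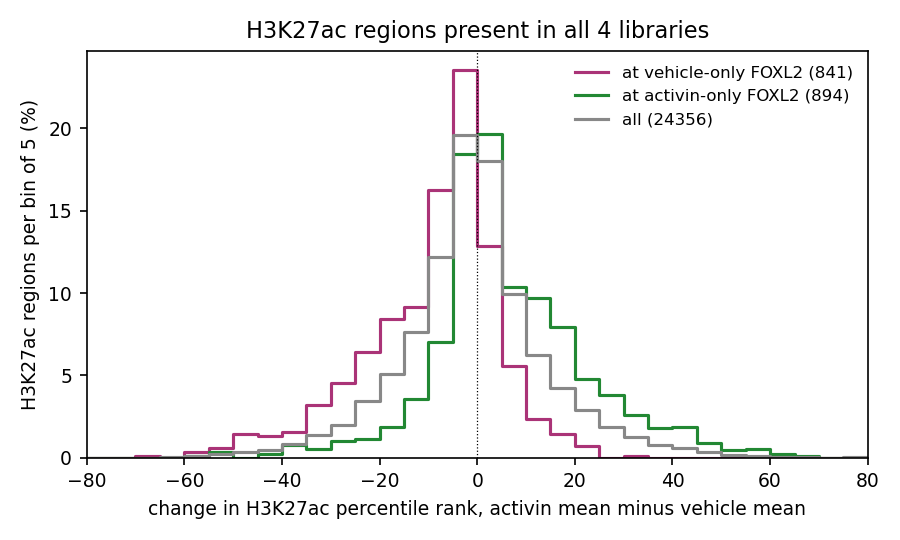
Percent of H3K27ac regions (vertical, bins of 5) by change in percentile rank, mean of the 2 activin minus mean of the 2 vehicle libraries (horizontal), for H3K27ac regions with peaks in all 4 libraries. The median change was −5.97 at 841 regions over vehicle-only FOXL2 regions, 3.27 at 894 over activin-only FOXL2 regions and −0.70 over all 24356.

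With vehicle, a SMAD2/3 peak overlapped 0.199% and 0.0249% of the vehicle-only regions (8 and 1 regions). With activin it overlapped 2.16% and 1.32% (87 and 53 regions). The difference was 1.63 percentage points (pooled SD 0.432, exact permutation p = 0.33). The SMAD2/3 lists grew as a whole, from 605 and 144 peaks with vehicle to 7784 and 5970 with activin. What part of the rise goes with list length was not tested. Constant regions had 8.61% and 6.82% with activin, and activin-only regions 4.73% and 3.76%. The 51143 FOXL2 regions of all other patterns, which were as weak (median vehicle ranks 20.4 and 20.5 where present), had 1.77% and 1.26%, near the values of the vehicle-only regions. The vehicle-only minus constant share changed by −5.55 percentage points (pooled SD 0.523) and the vehicle-only minus activin-only share by −2.6 (pooled SD 0.0982), each with an exact permutation p of 0.33. Constant regions are wider and stronger. With both sets held to a mean rank under 50 the vehicle-only minus constant change was −2.26, and with at least 50% of the region covered it was −1.36. With the strongest vehicle summit alone in place of the region it was −4.97. The rank limit and the summit setting were chosen after seeing the data. What part of the change goes with width or strength was not tested. Both activin libraries had a SMAD2/3 peak at 40 vehicle-only regions, 29 of which also had H3K27ac in both activin libraries.

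**Figure D5:**
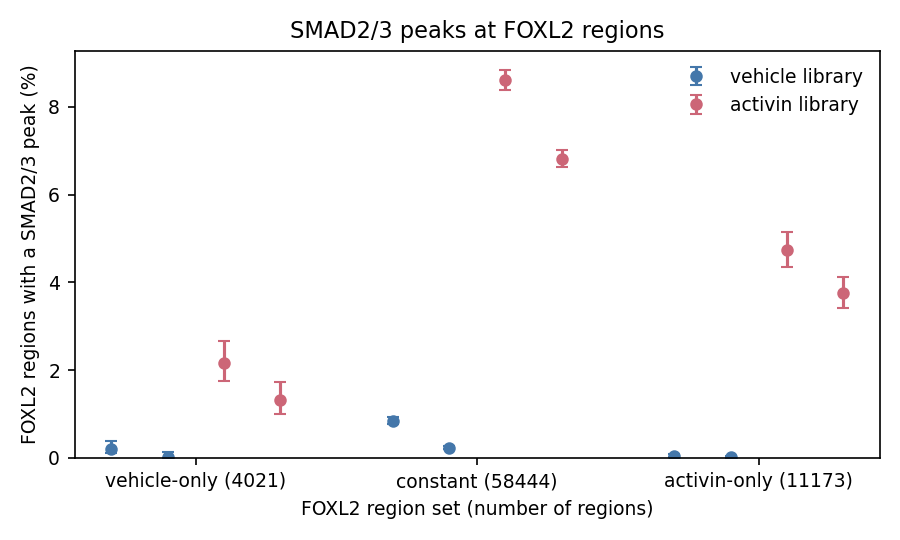
Percent of FOXL2 regions with a SMAD2/3 peak (vertical) in each library, for 3 sets of regions; points are libraries and bars are 95% Wilson intervals. With activin the vehicle-only regions reached 2.16% and 1.32%, below both other sets drawn.

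The strongest region with SMAD2/3 in both activin libraries was near the end of Irx6, an Iroquois homeobox gene. Its FOXL2 folds were 7.77 and 8 with vehicle, and its SMAD2/3 folds 7.17 and 4.58 with activin. H3K27ac was there in all 4 libraries, at 5.2 and 5.39 for vehicle, then 4.94 and 4.85 for activin. At Limch1, which encodes an actin-associated protein, FOXL2 folds were 5.62 and 4.69 and SMAD2/3 folds 4.44 and 5.47. The other named regions of this kind were near RP24-399A15.2, Mtnr1a, Nrm and Zhx3.

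By the deposited annotation, 53.3% of vehicle-only regions lay in introns, 36.2% between genes, 4.08% at promoters (3.51 to 4.74), 3.88% at transcript ends and 2.49% in exons. Promoters made up 3.65% of constant and 2.98% of activin-only regions. The median distance to the nearest start was 21.4 kb. At the 164 regions of the promoter class the H3K27ac shares were 54.3% and 51.2% for vehicle against 45.7% and 47% for activin, a difference of −6.4 percentage points. The difference was −6.41 in introns, −6.77 between genes, −8.33 at the 156 transcript ends and −2.5 in the 100 exon regions, where the groups overlapped (15% and 18% for vehicle, 16% and 12% for activin). Of the 61 regions at RefSeq promoter windows, 40 had H3K27ac in both vehicle libraries and 40 in both activin libraries. Among the strongest 6 of the promoter class, the region at −0.574 kb from Fut10, which encodes a fucosyltransferase, had FOXL2 folds of 8.58 and 8.93 and no H3K27ac. The regions listed with Kcnj16, Gm15555 and March7 carry the promoter class although the start given for that gene is 28.9, 21.6 and 32.7 kb away, so the class and the gene need not refer to the same transcript.

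From a vehicle-only region, the nearest FOXL2 peak of either activin library was a median of 2.83 kb away, and 16.2% of the regions had one within 500 bp. The nearest constant region was a median of 5.08 kb away, against 4.36 kb between constant regions and 6.68 kb from activin-only regions. The nearest SMAD2/3 region of both activin libraries was a median of 111 kb away, against 90.1 kb from constant and 113 kb from activin-only regions. The nearest other vehicle-only region was 104 kb away.

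The densest runs held 6 vehicle-only regions within 100 kb. In the order given below, their spans held 20, 16 and 22 FOXL2 regions of any pattern, of which 9, 6 and 8 were constant. Over the genome 3.22% of FOXL2 regions were vehicle-only, and the runs were picked for their density. One run lay across Tubgcp4, Trp53bp1 and Map1a (chr2:121179145-121265049), and none of its 6 vehicle-only regions had H3K27ac. Another lay upstream of and within Trpm3, which encodes a cation channel (chr19:22100256-22160583), with 4 regions intergenic and 2 in introns. The 2 regions with H3K27ac in both vehicle libraries were intergenic, at −25.9 and −25.2 kb from the start. No region of this run had H3K27ac in both activin libraries. Those 2 had the same vehicle H3K27ac folds (3.58 and 3.53) and ranks, so they need not be separate H3K27ac peaks. One of them also had an H3K27ac peak in activin 1 (fold 2.38). The third covered Speer4a, Gm7347 and 5031410I06Rik (chr5:26031275-26097969), where 5 regions had H3K27ac in both vehicle libraries and 0 in both activin libraries. Here too some regions had the same H3K27ac folds, so the count is not of separate H3K27ac peaks. Except for the region at chr5:26031275-26031588, they overlapped merged H3K27ac regions with peaks in all 4 libraries. The Speer genes are a family of near-identical copies, so the placement of reads there is uncertain.

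The nearest annotated genes numbered 3218. Over every gene, 5.89% of the regions with FOXL2 peaks in both vehicle libraries were vehicle-only, and the listed pathways are read against that share. For gonadotrope hormones and their receptor it was 2 of 10 regions, at Cga and Gnrhr. Cga encodes the glycoprotein hormone α subunit, and its vehicle-only region lay at −0.723 kb from the start with FOXL2 folds of 3.91 and 3.67, 66 bp from an activin FOXL2 peak. Its H3K27ac folds were 7.78 and 7.56 for vehicle, 8.68 in activin 1 and 4.27 in activin 2. The Gnrhr region, in an intron of the receptor for gonadotropin-releasing hormone, had folds of 4.21 and 5.01, and H3K27ac there was strong in all 4 libraries (9.73, 9.12, 9.44 and 8.32). Both regions carried H3K27ac in every library. Within 500 kb of the Fshb start, 2 of 92 FOXL2 regions were vehicle-only, against 3.22% of FOXL2 regions of any pattern over the genome. One was at the Arl14ep promoter 85.2 kb away, with vehicle ranks of 31.1 and 26.9. The other, near Gm9864, stood at the bottom of both lists, with ranks of 0.258 and 0.0501.

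Gonadotrope transcription factors had 2 of 66 regions (Otx1 and Nr0b1), and ligands and receptors of the activin and TGF-β family 2 of 78 (Acvr1 and Bmpr1b). SMADs and their feedback inhibitors had 5 of 58, near Smad2, Smad3, Smad7 and Skil. These 5 had mean ranks of 6.61 to 30.2 and lay close to FOXL2 peaks of an activin library. The gap was 239 bp at Smad2, 391 bp at Skil, 640 bp at Smad3, and 153 and 1177 bp at Smad7. It was 395 bp at the Bmpr1b region and 2497 bp at the Acvr1 region. Immediate early genes had 1 of 16 (Fos), forkhead factors 4 of 91 (Foxo6 and Foxp2), clock genes 2 of 29 (Cry1 and Bhlhe41) and genes of regulated secretion 4 of 112 (Chga, Scg2 and Rims2). The Foxp2 regions lay 181 to 848 bp from an activin FOXL2 peak and the Foxo6 region 2083 bp. Nuclear receptors had 10 of 97 regions (10.3%), near Thrb, Rorb, Rora and Rarb. These counts are small and were not tested.

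Thrb, which encodes thyroid hormone receptor β, was nearest to 5 vehicle-only regions, all overlapping H3K27ac regions shared by the 4 libraries. In all, 14 genes were nearest to 5 vehicle-only regions. The most for any gene was 8, among 89 regions with FOXL2 in both vehicle libraries. The count at Thrb is not set against its own number of FOXL2 regions, so it is not read as a concentration there. At the strongest, 63.7 kb into the gene, FOXL2 folds were 4.88 and 6.19, and H3K27ac folds were 4.66 and 4.51 for vehicle against 3.24 and 3.05 for activin. At the region 107 kb into the gene, H3K27ac folds were 4.78 and 5.41 for vehicle against 2.67 and 3.54 for activin. Near the start (1.66 kb) they were 4.36 and 4.2 with vehicle, with no peak in activin 1 and 3.43 in activin 2. At 27.8 kb they were 3.7 and 3.2 for vehicle, 2.73 in activin 1 and no peak in activin 2. Where an activin library had a peak at these 4 regions, its fold lay below both vehicle folds. At the upstream region, −250 kb from the start, the groups overlapped (4.19 and 3.58 with vehicle, 4 and 3.14 with activin). The 3 regions at Rorb, which encodes an orphan nuclear receptor, had no H3K27ac in activin libraries, and 1 of them had a weak peak (2.5) in vehicle 1.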

How the data were processed

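Per the labels' protocols, 50 bp single-end reads were sequenced. The submitters' processing notes name Bowtie2, MACS2, HOMER, GRCm38 and mm10, with no version or role. For each of the 12 libraries the authors deposited a list of peaks and a table annotating them. Each deposited peak has a fold enrichment (a ratio over a background not described), −log10 p and q values and a score. The Protein-A control is not analysed here. Depth in reads is unknown, so no correction for it was made.

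Peaks were merged and overlapped at 1 bp with pandas 2.3.3 and NumPy 2.4.6 (Python 3.11.15) after the merging code was tested on simulated data. Shares have 95% Wilson intervals, which cover counting error only. Library values were compared with the exact two-sided permutation test over 6 labellings. Regions are not replicates, and no test was made over them. No replicate pair had identical peak lists.

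The members, gene lists and motifs were chosen with earlier results of these data known. Named regions are the 10 strongest by mean vehicle rank, the 6 strongest in vehicle-only H3K27ac regions, in activin-only H3K27ac regions, with SMAD2/3 in both activin libraries and at promoters, those nearest a listed gene, the 3 densest runs, and 3 on each side of the rule. A genome of the build was not used here, so motifs were searched in RefSeq promoter windows in place of summit windows. Alternatives were stricter thresholds, other overlaps, equal list lengths, leaving out each library and a replicate block.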

Additional observations from a re-analysis of the deposited data

How the results depend on the processing

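The number of vehicle-only regions depended on the rule. It was 2265 when a −log10 q of at least 5 was needed in both vehicle lists with absence as deposited, and 3641 when that threshold was set on all 4 lists, an alternative chosen after seeing the data. It was 5884 with lists cut to equal length, 3359 with peaks merged within 500 bp, 4693 with at least 50% of the peak covered and 5229 with summits within 150 bp. Leaving out 1 library loosens the rule and gave 6856 (without activin 2) to 11207 (without vehicle 1) regions, with 6953 without activin 1 and 9677 without vehicle 2. The differences in H3K27ac and SMAD2/3 shares and in H3K27ac rank kept their direction under the alternatives run for each. Under those, the H3K27ac share at vehicle-only regions differed by −5.48 with 50% overlap, −6.09 with stricter H3K27ac peaks and −7.55 at regions of −log10 q at least 5, and by −5.57 to −7.46 without 1 library. Over 1 kb from any activin FOXL2 peak, an alternative chosen after seeing the data, it was −6.25. With the replicate block it was −6.52, with an exact sign-flip p of 0.5, the smallest 2 pairs allow; the replicate numbers are not stated to pair the samples, and the block changed no other call. Motif windows of other widths around the summits were not run. Peak lists without read counts limit every value to presence and rank within a list.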
